A study of Homo sapiens with 13 samples.

Results

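In MDA-MB-231, a basal-type breast cancer line of human origin, 3310 sites were occupied by JUN with no overlapping YAP, TAZ or TEAD4 peak, yet lay 10 kb or less from a listed YAP or TAZ peak. They were found by merging the deposited peak lists of the 4 proteins wherever peaks overlapped by 1 bp or more, which gave 28100 regions. Of these, 16291 held JUN peaks only. Among those, the 3310 had an edge-to-edge gap of at most 10 kb to the nearest peak of the YAP or TAZ list on the same chromosome, and the remaining 12981 lay farther away. The lists and the gap therefore chose the members, and JUN presence, the missing partners and the gap itself are given as descriptions only.

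The study used chromatin immunoprecipitation and sequencing (ChIP-seq) on cross-linked, sonicated chromatin of cells grown in serum-containing medium, with no treatment or genetic change named in the labels. It comprised 13 libraries: 2 each with antibodies to YAP, TAZ (the WWTR1 protein), TEAD4 and JUN, 2 with rabbit IgG and 3 with mouse IgG. YAP and TAZ peaks were called against rabbit IgG, TEAD4 and JUN peaks against mouse IgG. Per the raw file names in the labels, YAP and TAZ were also sequenced in another run than TEAD4 and JUN, so that factor, control and run cannot be told apart. Each factor has 1 peak list and no values per replicate. There is therefore no replicate spread and no test between conditions, and the read depth behind a peak is unknown here. All positions are on hg19. The cell line was not checked against markers, since the lists hold peak positions and scores.

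JUN is a subunit of AP-1, a dimer of leucine zipper proteins that binds short DNA elements, mostly in enhancers, and responds to growth factor and stress signals. YAP and TAZ, the coactivators held back by the Hippo kinases, do not bind DNA by themselves and reach it mainly through TEAD proteins such as TEAD4. Enhancers often hold several bound elements within a few kilobases, so a JUN site without YAP or TAZ of its own can still be part of a neighbourhood that holds them. A region counted here as JUN-only lacks a listed peak of the other proteins. It may hold weaker signal that the lists leave out, and the lists differ in length, with 24554 JUN peaks against 7709 for YAP, 9798 for TAZ and 8406 for TEAD4.

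JUN-only regions became sparser with distance from YAP or TAZ. Members made up 20.3% of all JUN-only regions (95% exact Clopper-Pearson interval 19.7 to 20.9), whereas the stretches within 10 kb of a YAP or TAZ peak, the peaks themselves left out, made up 6.00% of the span covered by the lists. There were 18.9 JUN-only regions per Mb within 10 kb and 4.74 per Mb beyond it, a ratio of 4.00. The span ran from the first to the last listed peak of each chromosome. Stretches where no peak can be called were not taken out of its length. What they do to this ratio and to the densities by distance was not tested. The intervals here and below cover counting error only and take regions as independent, although neighbouring regions can share a site, so they are too narrow.

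The decline ran through every band of distance examined. Up to 1 kb from a YAP or TAZ peak there were 27.9 JUN-only regions per Mb, and from 1 to 2 kb there were 27.2. The density was 18.6 per Mb from 2 to 5 kb and 15.0 per Mb from 5 to 10 kb. It went on falling outside the limit, to 11.8 per Mb from 10 to 20 kb, 9.19 from 20 to 50 kb, 6.56 from 50 to 100 kb and 2.93 beyond 100 kb. The change across the 10 kb limit was within the range of those between other neighbouring bands. The other classes of region without YAP and TAZ sloped in the same direction. TEAD4-only regions fell from 1.60 per Mb in the first kilobase to 0.150 beyond 100 kb, and 19.6% of the 855 lay within 10 kb (17.0 to 22.5). For JUN with TEAD4 but neither coactivator, the share within 10 kb was 22.6% of 689 (19.6 to 26.0).

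**Figure D1:**
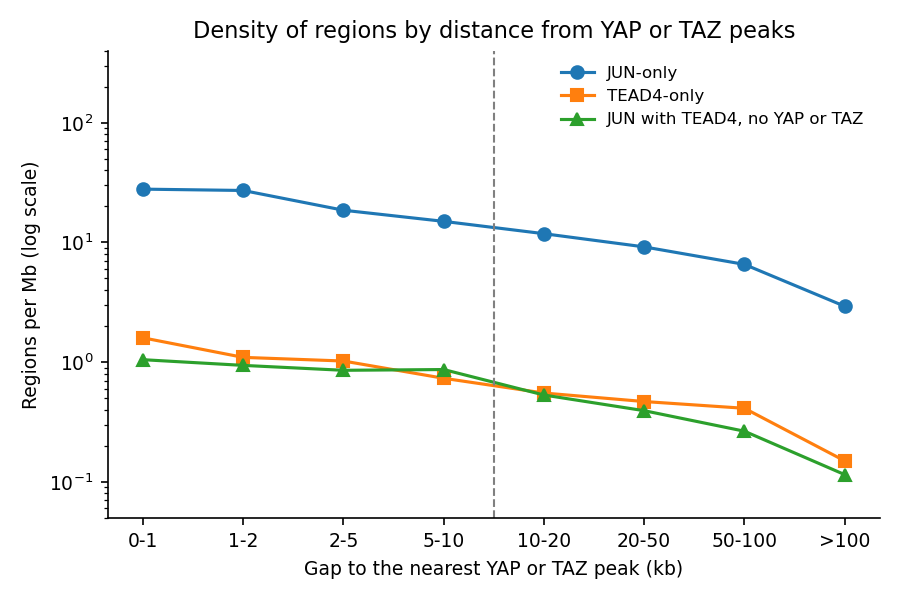
Regions per Mb (log axis) in bands of gap to the nearest YAP or TAZ peak (kb), for JUN-only, TEAD4-only and JUN with TEAD4 regions; the dashed line marks the 10 kb limit. JUN-only density falls from 27.9 per Mb in the first band to 2.93 per Mb in the last, by 15.0 and 11.8 on either side of the line.

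Most members were well separated from the neighbouring peak. The gap had a median of 3555.5 bp, with quartiles of 1450 and 6438 bp, and ran from 9 to 9998 bp. Only 64 members had a gap of 200 bp or less. The first kilobase held 559 members and the second 521, against 235 in the last.

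The tightest cases were peaks that all but touched. On chromosome 11 (69167001 to 69168114) a JUN peak of 19.3-fold enrichment over IgG stood 9 bp from a region with all 4 factors (69165767 to 69166991), whose own JUN peak reached 7.86-fold. On chromosome 12 (39629946 to 39630661) a 15.2-fold JUN peak stood 11 bp from a YAP or TAZ peak of a 4-factor region with 10.2-fold JUN, and 3 bp from a TEAD4 peak. On chromosome 4 (41147702 to 41148129) a weak JUN peak, 7.46-fold, stood 28 bp from a region of YAP and TAZ alone. In these 3 cases the assignment to JUN-only rests on where the peak edges were drawn.

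At the limit itself, the 3 nearest regions on each side had JUN enrichments of overlapping range. Just inside were a 7.47-fold JUN peak on chromosome 5 (152941769 to 152942184, gap 9998 bp), an 11.5-fold peak on chromosome 10 (15253256 to 15254062, gap 9982 bp) and a 16.1-fold peak on chromosome 8 (67458536 to 67459467, gap 9981 bp). Just outside were an 8.87-fold peak on chromosome 10 (34999255 to 34999975, gap 10004 bp), a 12.2-fold peak on chromosome 6 (31703611 to 31704909, gap 10008 bp) and a 9.37-fold peak on chromosome 14 (23071636 to 23072524, gap 10009 bp). The enrichments of the 3 inside span those of the 3 outside. Their neighbours differed. Each of the 3 inside had a neighbour with JUN, whereas outside the neighbours on chromosomes 10 and 6 held none. With 3 regions on each side, the sides cannot be compared further.

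JUN bound the members about as strongly as it bound JUN-only regions far from any YAP or TAZ site. The fold enrichment, which is the authors' own value for each peak and was used only within the JUN list, had a median of 10.9 at members (95% order-statistic interval 10.8 to 11.1, quartiles 9.03 and 13.9). At the farther JUN-only regions the median was 11.0 (10.9 to 11.1, quartiles 9.15 and 14.1), so that the ratio of the medians was 0.992 and the intervals overlapped. JUN peaks that did overlap YAP or TAZ were stronger, with a median of 13.7 over 7550 regions (13.6 to 13.9), which is 1.26 times that of the members. The members' median was the higher of the JUN-only pair on 12 of 23 chromosomes and the lower on 11, while JUN with YAP or TAZ exceeded the members on 23 of 23. The weakest member had 4.95-fold enrichment and the strongest 31.6-fold.

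**Figure D2:**
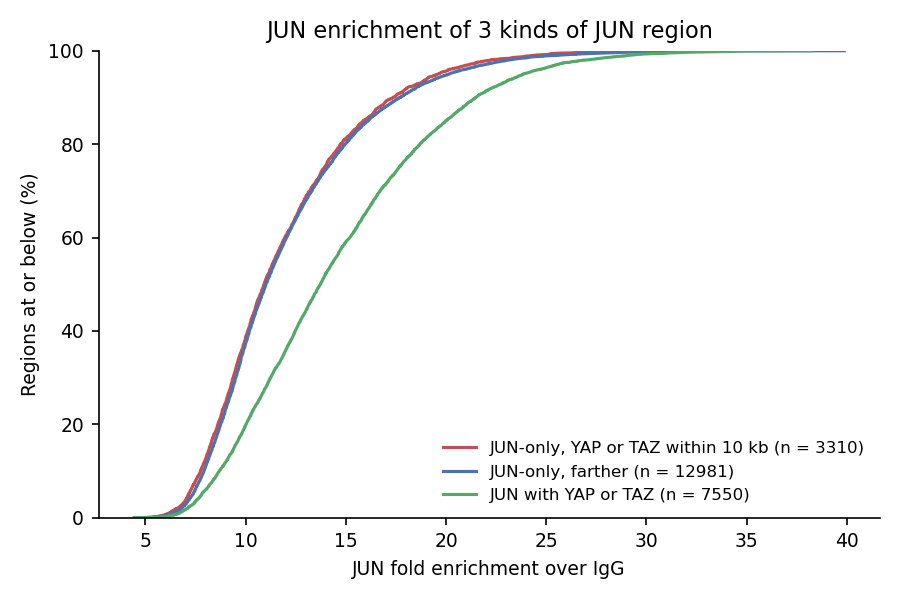
Share of regions (%) at or below each JUN fold enrichment over IgG, for members, farther JUN-only regions and JUN regions with YAP or TAZ. The curves of both JUN-only groups nearly coincide (medians 10.9 and 11.0), and the curve of JUN with YAP or TAZ lies to the right (median 13.7).

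Nor did JUN enrichment follow the gap among the members. Its median was 10.9 up to 1 kb (10.6 to 11.3), 10.7 from 1 to 2 kb (10.4 to 11.1), 10.7 from 2 to 5 kb (10.5 to 11.0) and 11.2 from 5 to 10 kb (10.9 to 11.4). Across the 3310 members, Spearman's rho between gap and enrichment was 0.035, given as a description because members can share a neighbour. The intervals of neighbouring bands overlapped throughout.

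By rank of fold enrichment in the whole JUN list, members also lay near the farther regions. Of the members, 5.65% belonged to the most enriched 10% of JUN peaks (4.89 to 6.49), against 6.62% of the farther JUN-only regions (6.20 to 7.06) and 18.2% of JUN regions with YAP or TAZ (17.3 to 19.0). The least enriched 10% took 13.0% of members, 11.4% of farther regions and 6.13% of those with YAP or TAZ. Among the JUN-only regions of each of these 10 parts, the share lying within 10 kb of YAP or TAZ differed most between the ends. It was 22.6% (20.7 to 24.5) in the least enriched 10% and 17.9% (15.6 to 20.3) in the most enriched. The parts between them gave 19.1% to 21.3%, with no steady fall. With the list ranked by −log10 p instead, this share was lowest in the weakest 10%, at 17.3% (15.7 to 19.0). It was highest in the second strongest 10%, at 24.9% (22.4 to 27.4), and 21.5% (18.9 to 24.3) in the strongest.

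Peak width and p-value did differ between members and farther regions. Member JUN peaks had a median width of 740 bp (726 to 751) against 677 bp (671 to 682) for farther JUN-only regions and 829 bp (820 to 838) with YAP or TAZ. Members were wider than farther regions on 23 of 23 chromosomes. The median width was 750 bp in the first kilobase and 735 bp from 5 to 10 kb, then 702 bp from 10 to 20 kb, 710 bp from 20 to 50 kb, 679 bp from 50 to 100 kb and 647 bp beyond 100 kb. The −log10 p of the authors' caller had medians of 100.4 at members, 95.2 at farther regions and 146.4 with YAP or TAZ. It was higher at members than at farther regions on 20 of 23 chromosomes. With −log10 p as the measure of strength, members therefore stood at 1.05 times the farther regions, where fold enrichment gave 0.992. By band, the median −log10 p did not fall steadily. It lay between 99.2 and 101.9 in the bands within 10 kb and was 97.1 from 10 to 20 kb. Farther out it was 99.0 from 20 to 50 kb, 94.1 from 50 to 100 kb and 92.5 beyond 100 kb.

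The difference in width held at like enrichment. In the most enriched 25% of JUN-only regions members had a median of 886 bp and farther regions 794 bp, and in the least enriched 25% 640 bp and 610 bp. The −log10 p was likewise higher at members in both, with medians of 186.3 against 174.9 and 66.6 against 64.8.

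**Figure D3:**
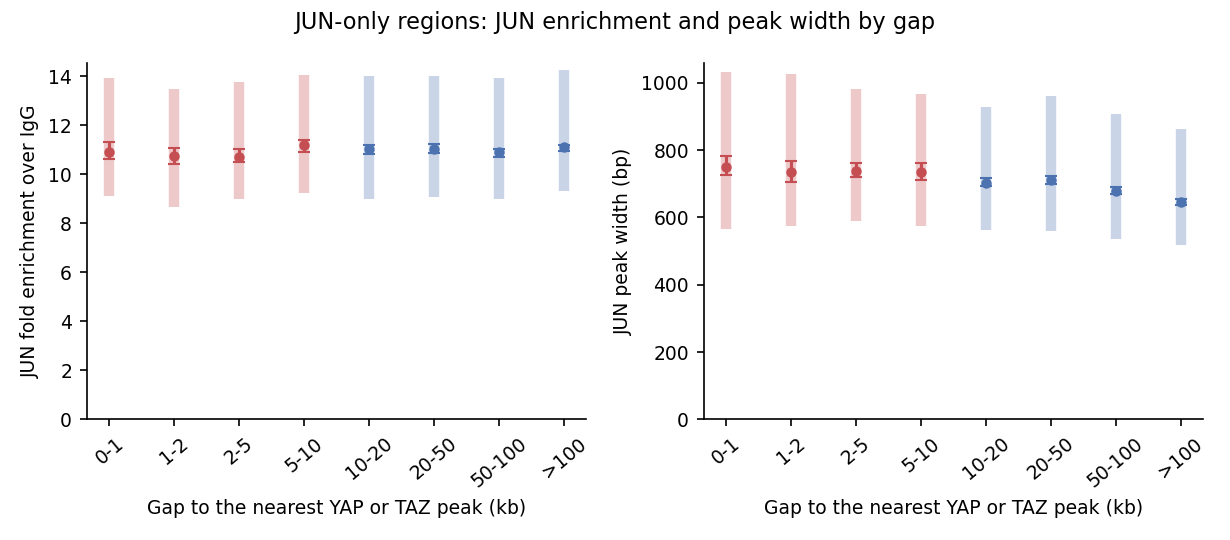
Median JUN fold enrichment (left) and median JUN peak width in bp (right) of JUN-only regions by gap to the nearest YAP or TAZ peak in kb. Points are medians with 95% order-statistic intervals, pale bars the quartiles, red the members and blue the farther regions. Enrichment stays between 10.7 and 11.2 in all bands, and width is 750 bp in the first band and 647 bp in the last.

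Within a member, the JUN summit leaned slightly away from the neighbour. Of members up to 1 kb from the YAP or TAZ peak, the summit lay in the part of the JUN peak nearer to it in 44.4% of 556 (40.2 to 48.7, leaving out summits at the exact midpoint). From 1 to 5 kb the share was 47.9% (45.3 to 50.4) and from 5 to 10 kb 49.2% (46.4 to 52.1). Over all 3295 it was 47.8% (46.1 to 49.5). The intervals of the first band and of all members lie below an even split, but they are too narrow, as said above. The edge facing the neighbour sets both the gap and the midpoint. No share is given for farther JUN-only regions, so the lean cannot be called particular to members.

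The members had company from both coactivators in most cases. A YAP and a TAZ peak were both within 10 kb at 76.4% of members (74.9 to 77.8), TAZ without YAP at 19.5% and YAP without TAZ at 4.11%. The nearest region alone held both for 73.0% of members (71.4 to 74.5), against 68.7% of all YAP or TAZ regions (67.8 to 69.6). The excess of TAZ over YAP goes with the longer TAZ list. Peaks of the coactivators lay within 10 kb on both sides of 327 members (9.88%), on the side of lower coordinates alone at 1474 and on the other side alone at 1509. Those flanked on both sides had a median JUN enrichment of 10.6 (10.2 to 11.0), against 11.0 (10.8 to 11.1) for the rest.

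TEAD4, the DNA-binding partner of the coactivators, was within 10 kb of 71.8% of members (70.2 to 73.3) and of 3.27% of farther JUN-only regions (2.97 to 3.59). Much of this contrast is built into the rule, because YAP and TAZ sites usually hold TEAD4. The nearest YAP or TAZ region held TEAD4 for 66.8% of members (65.2 to 68.4), and for 64.2% of the farther regions (63.4 to 65.1), whatever its distance. A TEAD4 peak within 10 kb where the nearest YAP or TAZ region held none was seen at 5.35% of members (4.61 to 6.17) and 1.12% of farther regions (0.950 to 1.32). The rule bears on this contrast too. Members can have another YAP or TAZ peak within 10 kb, and farther regions by definition have none. Both shares are over all regions of the group, whatever the nearest region held. At 935 members (28.2%) no TEAD4 peak lay within 10 kb.

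JUN itself was usually present at the neighbouring YAP or TAZ site. The nearest region held JUN for 2631 members, or 79.5% (78.1 to 80.9), whereas JUN was present at 73.6% of all 10265 regions with YAP or TAZ (72.7 to 74.4). Counting each of the 2691 distinct neighbours once gave 79.2% (77.6 to 80.7). The neighbour held all 4 factors for 46.5% of members (44.8 to 48.2), against 41.7% of all YAP or TAZ regions (40.8 to 42.7). With only the stronger 50% of the YAP and TAZ peaks taken as neighbours, this share was 70.3% (68.2 to 72.4), against 66.0% (64.7 to 67.3) of all 5162 regions with such a peak. TEAD4 showed little shift, at 66.8% of the members' neighbours and 65.7% of all YAP or TAZ regions (64.8 to 66.6). Neighbours with TAZ and TEAD4 alone were fewer, at 2.57% of members against 4.49% of all YAP or TAZ regions (4.10 to 4.91).

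Read from the side of the coactivators, 26.2% of the YAP or TAZ regions had at least 1 member assigned to them as the nearest. The share was 28.2% (27.2 to 29.3) of the 7550 that held JUN and 20.6% (19.1 to 22.2) of the 2715 that did not. Among classes it was highest at regions with all 4 factors, 29.0% (27.7 to 30.4), and with YAP, TAZ and JUN, 28.8% (26.3 to 31.4), and lowest at those with TAZ and TEAD4 alone, 15.8% (12.6 to 19.5). At regions with YAP, TAZ and TEAD4 but no JUN it was 23.2% (20.9 to 25.7). Each class that held JUN had a larger share than the same class without JUN, with overlapping intervals for YAP alone and for YAP with TEAD4. These regions cluster to different degrees, and how that bears on the shares was not tested.

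The strength of the YAP or TAZ peak made little difference to this. In 5 equal parts by YAP enrichment, 27.1% of the strongest regions (24.9 to 29.4) and 29.8% of the weakest (27.5 to 32.1) had a member. By TAZ enrichment the shares were 27.4% (25.4 to 29.5) and 27.1% (25.2 to 29.2). A weak coactivator site therefore had a JUN-only neighbour about as often as a strong one.

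Where both sites of a pair held JUN, the site with YAP or TAZ was the stronger in most. Over 2631 such pairs, which involve 2132 distinct neighbours, the member had the lower JUN enrichment in 67.5% (65.6 to 69.3), the higher in 854 pairs, and tied in 2. The median was 10.9 at the members and 14.0 at their neighbours. The neighbour's enrichment divided by the member's had a median of 1.24 (1.22 to 1.27) with quartiles of 0.912 and 1.69. When every member was set against every JUN region with YAP or TAZ on any chromosome, the member was the lower in 66.4% of combinations, close to the share among true neighbours.

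The JUN levels of neighbours were nearly unrelated. Spearman's rho between the JUN enrichment of a member and that of its neighbour was 0.079 over the 2631 pairs. With the neighbour's TAZ enrichment it was 0.033 (3150 pairs), with YAP 0.036 (2576) and with TEAD4 0.050 (2212). These are descriptions across sites that share libraries and sometimes a neighbour, and values this small are no finding. The members' median JUN enrichment was 10.9 (10.8 to 11.1) beside a neighbour with JUN and 10.8 (10.5 to 11.3) beside one without.

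**Figure D4:**
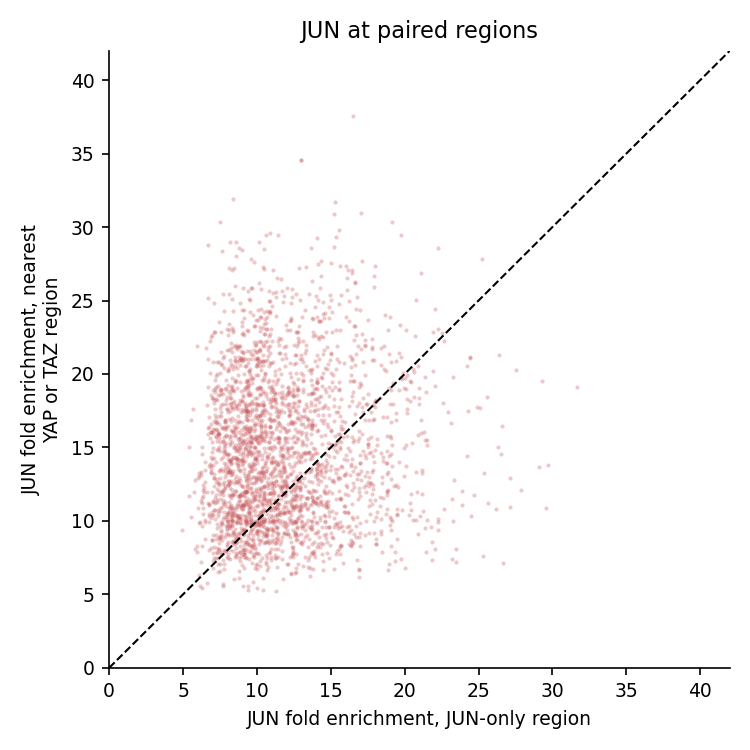
JUN fold enrichment of each member (horizontal axis) and of the JUN peak at its nearest YAP or TAZ region (vertical axis), over 2631 pairs; the dashed line marks equal values. More points lie above the line (the member is lower in 67.5%), and the cloud shows no slope (rho 0.079).

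The 10 most enriched members, spread over 6 chromosomes, ranked between 48 and 237 in the JUN list. The first lay on chromosome 8 (23202328 to 23203303), with 31.6-fold JUN, 6647 bp from a 4-factor region with enrichments of 6.18 (YAP), 7.10 (TAZ), 7.24 (TEAD4) and 19.1 (JUN). The second, on chromosome 6 (155447979 to 155448871), had 30.9-fold JUN and stood 9204 bp from a region of YAP, TAZ and TEAD4 that held no JUN peak. Another on chromosome 6 (169470373 to 169471335), 29.5-fold, also had a JUN-free neighbour, 1955 bp away, with YAP at 5.72 and TAZ at 4.83. In the remaining 8 the neighbour held JUN, and in each of these the member had the higher JUN enrichment.

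Of those 8, the largest contrast was on chromosome 9 (19998764 to 20000087), where the member had 29.6-fold JUN and the 4-factor neighbour, 5609 bp away, had 10.9-fold. The smallest gap was on chromosome 3 (115509504 to 115510130), where 27.6-fold JUN stood 1096 bp from a 4-factor region with 14.6-fold YAP and 20.2-fold JUN. On chromosome 2 (227514639 to 227515505) a 29.1-fold member stood 1378 bp from a region of TAZ and JUN, and its nearest TEAD4 peak was 10977 bp away. Another member on chromosome 6 (14743296 to 14744733) had 29.7-fold JUN, and one on chromosome 8 (41574944 to 41575963) had 27.2-fold. Between them ranked members on chromosomes 17 (64271636 to 64273067) and 3 (112395384 to 112396319). The set was chosen by JUN enrichment, so the direction of these contrasts follows in part from the choice.

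Of the 5 members with the strongest neighbours, 3 exceeded 17.4-fold JUN, the level above which the most enriched 10% of members lay. The best mean rank of YAP and TAZ belonged to a region on chromosome 22 (41686522 to 41687373), with 30.2-fold YAP, 34.4-fold TAZ, 26.4-fold TEAD4 and 17.3-fold JUN. It had 2 members, one at 1702 bp with 12.8-fold JUN (41684079 to 41684819) and one at 3894 bp with 19.4-fold (41681205 to 41682627). On chromosome 19 (2540487 to 2541370) a site of 29.0-fold YAP and 29.7-fold TAZ held 12.8-fold JUN, while the member 2008 bp away (2543376 to 2544395) held 19.1-fold. On chromosome 12 a member with 20.4-fold JUN (43353749 to 43354416) stood 637 bp from a site with 28.6-fold YAP, 30.5-fold TAZ and 18.2-fold JUN. The fifth, on chromosome 10, is the 11.5-fold peak just inside the limit, beside 29.2-fold YAP and 20.3-fold JUN. In 3 of these 5 pairs the member held the more enriched JUN peak, against 854 of all 2631 pairs with JUN at both sites. These 5 members, 2 of them with the same neighbour, are too few to show a trend. Over all members with such a neighbour, rho with the neighbour's enrichment was 0.036 for YAP and 0.033 for TAZ.

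Most neighbours had a single member. There were 2154 YAP or TAZ regions with 1, 466 with 2, 61 with 3, 9 with 4 and 1 with 5. The one with 5 was a YAP, TAZ and JUN region without TEAD4 on chromosome 17 (76330449 to 76331634), with 9.41-fold YAP, 9.98-fold TAZ and 23.0-fold JUN. Its members, at 1917 to 8784 bp, had JUN enrichments of 8.39, 20.1, 15.3, 18.9 and 15.6, all below the neighbour's own. On chromosome 5 a 4-factor region (143300924 to 143301643, 16.7-fold JUN) had 4 members at 168, 471, 1732 and 7503 bp, with 7.30, 8.76, 9.02 and 12.6-fold JUN. Another on chromosome 5 (131430000 to 131431081, 19.0-fold JUN) had 4 with 7.83 to 13.9-fold. In these 3 groups the coactivator site carried the most enriched JUN peak.

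Along the chromosomes, members were found in 2308 windows of 100 kb, of which 1609 held 1, 481 held 2 and 155 held 3. The fullest windows held 7 each. One lay on chromosome 5 (172200001 to 172300000), where the 7 members had 7.24 to 16.9-fold JUN around 3 regions with YAP or TAZ. The other lay on chromosome 22 (36700001 to 36800000), with 7.06 to 20.1-fold JUN around 5 such regions. The next, on chromosome 10 (3800001 to 3900000), held 6 members around 4. The share of JUN-only regions that were members ran from 10.1% on the X chromosome and 15.6% on chromosome 7 to 26.6% on chromosome 11 and 26.7% on chromosome 20.

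Other JUN sites were also close to the members. The nearest other region with JUN lay at a median of 3169 bp (2984 to 3333), against 23301 bp (22541 to 24091) for farther JUN-only regions and 10157 bp (9745 to 10697) for JUN with YAP or TAZ. It was within 10 kb for 88.7% of members and 28.7% of farther regions. The former follows in part from the rule, since the YAP or TAZ neighbour held JUN for 79.5% of members.

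Finally, the numbers in the peak names bear on whether weaker YAP or TAZ peaks could sit at the members. The numbers ascend along each chromosome and skip values, and if they count all candidates of the caller, a skipped number is a candidate that was left off the list. The TAZ names are tagged YAPTAZ and the JUN names carry a tag that begins with Rep, and the labels leave both unexplained. A region between listed peaks with consecutive numbers then has no unlisted candidate. This held for YAP at 180 of 3299 members with a listed YAP peak on either side (5.46%, 4.71 to 6.29), for TAZ at 4.51% (3.83 to 5.28) and for TEAD4 at 9.82% (8.83 to 10.9). For YAP and TAZ together it held at 60 members, or 1.82% (1.39 to 2.33), and at 0.545% with the stronger 50% of the JUN list. The farther JUN-only regions gave 1.49% (YAP), 1.14% (TAZ), 4.17% (TEAD4) and 0.396% (YAP and TAZ together). They lay in longer stretches, with a median of 576 kb between the flanking YAP peaks against 166 kb at members. At the other members the names leave room for an unlisted candidate somewhere between the flanking peaks, with a median of 4 skipped numbers for YAP and 4 for TAZ over all members.

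For YAP and TAZ, the share of members between consecutively numbered peaks was smaller at more enriched JUN peaks. The median of skipped numbers hardly moved. It was 4 in every part for TAZ, and for YAP 4 in all but the most enriched part, where it was 5. In the least enriched 25% (median 8.05-fold JUN), 8.29% of members (6.54 to 10.3) lay between consecutively numbered YAP peaks, and in the next parts of equal size 5.95% and 4.90%. In the most enriched 25% (median 16.6-fold), the share was 2.48% (1.52 to 3.80). The TAZ list gave 5.87% (4.40 to 7.64) in the least and 2.35% (1.42 to 3.65) in the most enriched part. The TEAD4 list gave no steady fall, with 10.6% (8.63 to 12.8), 10.1%, 10.9% and 7.58% (5.85 to 9.63) from the least to the most enriched part and overlapping intervals. The stretch between the flanking YAP peaks also lengthened, from a median of 149 kb in the least to 192 kb in the most enriched part, and that between TAZ peaks from 95.4 to 111 kb, and the part of these lengths in the shares was not tested. At the farther JUN-only regions the TAZ share was 1.53% (1.14 to 2.02) in the least and 0.675% (0.424 to 1.02) in the most enriched part. The YAP share was 1.95% (1.50 to 2.49) and 1.17% (0.831 to 1.61), and the TEAD4 share 4.52% (3.82 to 5.30) and 3.63% (3.01 to 4.33), with overlapping intervals in both lists.

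**Figure D5:**
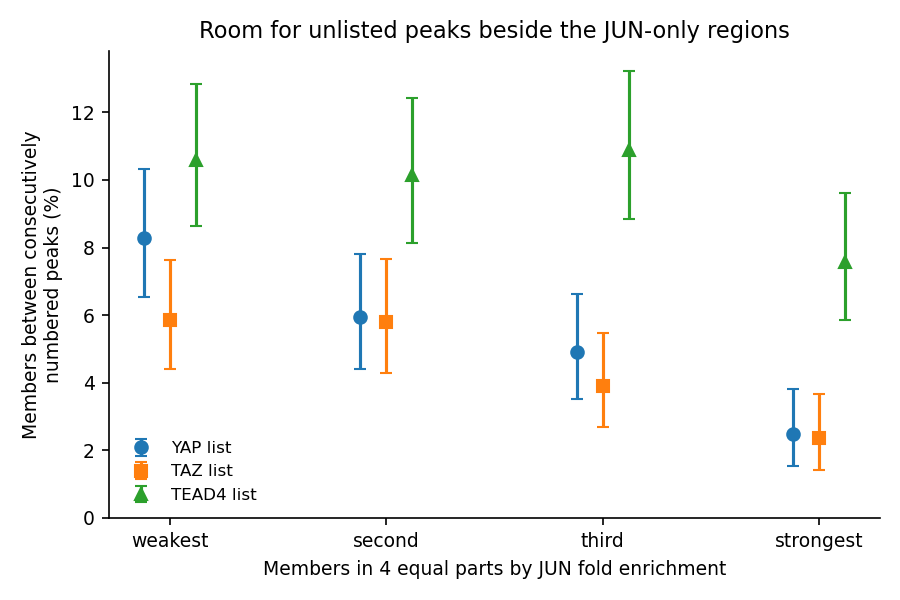
Share of members (%) lying between listed peaks with consecutive numbers in the YAP, TAZ or TEAD4 list, in 4 equal parts of JUN-only regions by JUN fold enrichment, with 95% Clopper-Pearson intervals. For YAP the share falls from 8.29% in the least to 2.48% in the most enriched part.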

How the data were processed

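Peak calling used pooled IgG libraries as control and the irreproducible discovery rate (IDR), with 0.01 in the list names, per the labels. The tools named are CASAVA, Bowtie 0.12.7, SAMtools and MACS2 2.0.10, with build hg19, per the submitters' processing notes. The deposited narrowPeak lists give a fold enrichment (a ratio to IgG), and a −log10 p per peak; the deposited score is 10 times the −log10 p and was not used further. Depth per sample is unknown here.

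Peaks were merged at an overlap of 1 bp, gaps were counted in bases between edges, and a region took its most enriched JUN peak. Samples were grouped by title or antibody. Shares have 95% Clopper-Pearson intervals, medians order-statistic intervals. No test was run, since there is 1 list per factor. Python 3.11.15, numpy 2.4.6, pandas 2.3.3 and scipy 1.17.1 were used, and the merging and gap steps were checked on simulated lists. Positions named are the 10 most enriched members, the 3 smallest gaps, 3 on each side of the limit, 3 neighbours and 3 windows of 100 kb with most members, and 5 members with the strongest neighbours. Members, lists and descriptions were chosen with earlier results of these data known. Alternatives were gap limits of 5 and 20 kb, summit distances, peaks narrowed to 200 bp and the stronger 50% of lists, cut at the median −log10 p. Others were −log10 p in place of fold enrichment, single JUN peaks and chromosomes left out. Genes, motifs and DNA sequences were not analysed here.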

Additional observations from a re-analysis of the deposited data

How the results depend on the processing

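For 10 results, 301 alternative values were computed, of which 270 fell inside the 95% interval of the value given above (for the count of members, within 1.5 times of it). Of these, 10 are equal by construction, since no JUN-only region held several JUN peaks; without them 260 of 291 did so. All 230 values with a chromosome left out did so. Each of these keeps most of the same regions (2978 to 3279 members), so little movement was possible. Of the other 71 values, 40 fell inside and 31 outside. The 10 equal by construction are among the 40. The number of members was 2081 with a limit of 5 kb, 5026 with 20 kb, 1470 with the stronger 50% of the JUN list and 1895 with the stronger 50% of the YAP and TAZ lists. The share of JUN-only regions that were members was in the same order 12.8%, 30.9%, 21.9% and 11.6%, and 19.3% by summit distance and 21.6% with narrowed peaks. The density ratio was 4.44 at 5 kb, 3.62 at 20 kb, 3.75 by summit distance, 4.29 with narrowed peaks and 4.40 with the stronger JUN peaks. The enrichment of members over farther regions was 0.961 with the stronger JUN peaks and 1.05 by −log10 p. The stronger JUN peaks were chosen by −log10 p, which was higher at members at like enrichment. How that choice bears on the 0.961 was not tested. The neighbour held JUN in 65.9% with narrowed peaks, 59.7% with the stronger JUN peaks and 82.3% with the stronger YAP and TAZ peaks, and all 4 factors in 37.9%, 36.3% and 70.3%. For the 70.3%, the share over all regions with a stronger YAP or TAZ peak was 66.0%. No such share was computed for the other values. They cannot be set beside the 73.6% (JUN) and 41.7% (all 4) of the main setting. The member was lower in JUN in 60.8% of pairs with the stronger JUN peaks, 73.5% with the stronger YAP and TAZ peaks and 69.8% by −log10 p. TEAD4 lay within the limit at 68.2% of members for 5 kb, 74.6% for 20 kb and 88.6% with the stronger YAP and TAZ peaks. The share between consecutive YAP and TAZ numbers was 2.69% with narrowed peaks and 0.545% with the stronger JUN peaks. A changed gap limit, or fewer YAP and TAZ peaks as neighbours, alters the number and share of members by the rule itself. The cause of the other shifts was not tested. Width has no value for narrowed peaks. No replicate could be left out. No paired analysis was possible because each factor has 1 list for both replicates. What depth limits is unknown here.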
